A study of Mus musculus with 2 samples.

Results

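The genes described here are 39 markers of B cells and of myeloid cells, the latter taken to include macrophages and monocytes, dendritic cells, granulocytes and mast cells. They were found by gene symbol in a table of 65956 array rows, and each of the 39 had at least 1 row that names it alone, among 30142 genes so named in all. The list holds 12 B cell, 14 macrophage and monocyte, 7 dendritic cell, and 6 granulocyte, mast cell and myeloid precursor genes. The samples were Vγ6 γδ T cells, an innate-like T cell subset that forms in the fetal and perinatal thymus, sorted from C57BL/6 mice at 0 days of age. The genotype was wild type (WT) in one group and MHC class II KO, a knockout without MHC class II, in the other, whose array is called the knockout array. Each group was 1 array, so no difference below has an error, a replicate check or a test, and all differences describe this pair of arrays. The labels do not name the disrupted class II gene, and they say neither how many thymi went into a sample nor how pure the sort was.

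B cells recognise antigen with a membrane immunoglobulin that signals through the paired chains encoded by Cd79a and Cd79b, and their identity is set by transcription factors such as EBF1 and PAX5. Macrophages and dendritic cells take up and degrade proteins in lysosomes, and with B cells they are the main cells that show the resulting peptides on MHC class II. A small number of B cells, dendritic cells and macrophages live in the thymus, where they present self antigens and clear dying thymocytes. Several genes used as markers of these cells, among them lysosomal genes and signalling adaptors, are also transcribed in some T and innate lymphoid cells.

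Signal was compared with the background of each array, set as the 95th percentile of 1228 olfactory receptor rows. In log2 signal the background lay at 5.94 for WT and at 5.86 for the knockout, and a gene above it is called detected. Of the 39 markers, 11 (28.2%) were detected in WT and 14 (35.9%) in the knockout, against 46.8% of all genes on each array. The 11 were detected on both arrays, 3 more on the knockout array alone, and 25 on neither. Of all genes, 48.1% were detected on at least 1 array. The 25 had log2 signals of 4.09 to 5.84 on the WT array (median 4.85) and of 4.07 to 5.81 on the knockout array (median 4.85), in the range of the olfactory receptor rows, whose medians were 4.60 and 4.60. Signals of different rows depend on their probes, so genes are not ranked against each other by level. In sorted bulk RNA, fewer cells of a type and less RNA per cell cannot be told apart.

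**Figure D1:**
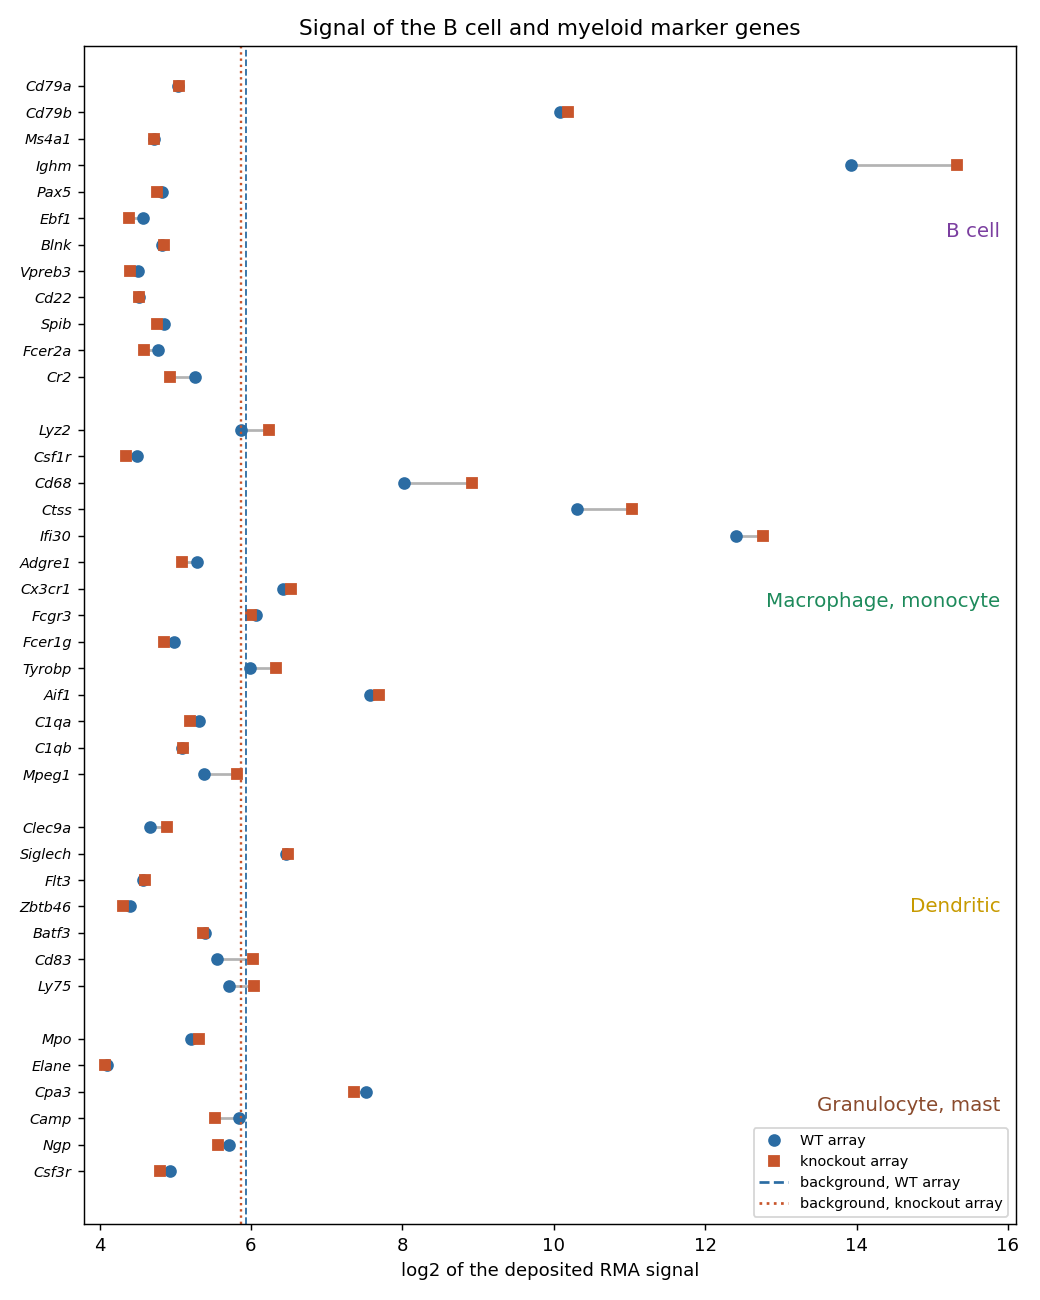
Log2 signal of each of the 39 marker genes on the WT array (circles) and the knockout array (squares), grouped by cell type, with the background of each array as a vertical line. In the plot 25 genes lie left of the lines on both arrays, and the widest gap between the arrays is that of Ighm, from 13.93 to 15.33.

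The sorted cells were checked against T cell genes. All 11 T cell reference genes with a row of their own were detected on both arrays, among them Cd3e at log2 signals of 16.90 and 16.87 on the WT and knockout arrays and the Vγ6 gene Tcrg-V6 at 12.64 and 12.33. The 11 genes had a median difference of 0.10, taken throughout as knockout minus WT in log2 signal, and 1 of them, the surface glycoprotein gene Thy1, was past 1.5-fold (9.02 and 9.80, 1.72-fold higher in the knockout). The adhesion receptor gene Cd2 came close to it (9.47 and 10.02, 1.47-fold). Genes of double positive and αβ thymocytes, the most numerous cells of a thymus, were also present and differed between the arrays. Of 12 with a row of their own, 9 were detected on the WT array and 11 on the knockout array, and 7 were at least 1.5-fold higher on the latter and 0 at least 1.5-fold lower. The 7 were 63.6% of the 11 detected on at least 1 array. Among all 14494 genes so detected, 3.74% were higher and 2.66% lower by as much. The widest differences were those of Dntt, the gene for terminal transferase (5.31 and 7.82, detected on the knockout array alone), Cd8b1, which encodes the CD8 β chain (13.38 and 14.75), Aqp11 (8.58 and 9.80) and Cd24a (8.93 and 9.91). The summed linear signal of the list was 15697 on the WT array and 35336 on the knockout array, most of it from Cd8b1, and the other 11 genes summed to 5063 and 7733. Natural killer and innate lymphoid genes parted: of 12 with a row of their own 8 were detected on both arrays, with Tbx21 (6.14 and 7.31) higher and Gzmb (8.11 and 6.97) lower in the knockout by 1.5-fold or more. The part of these cells in any difference below was not tested.

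**Figure D2:**
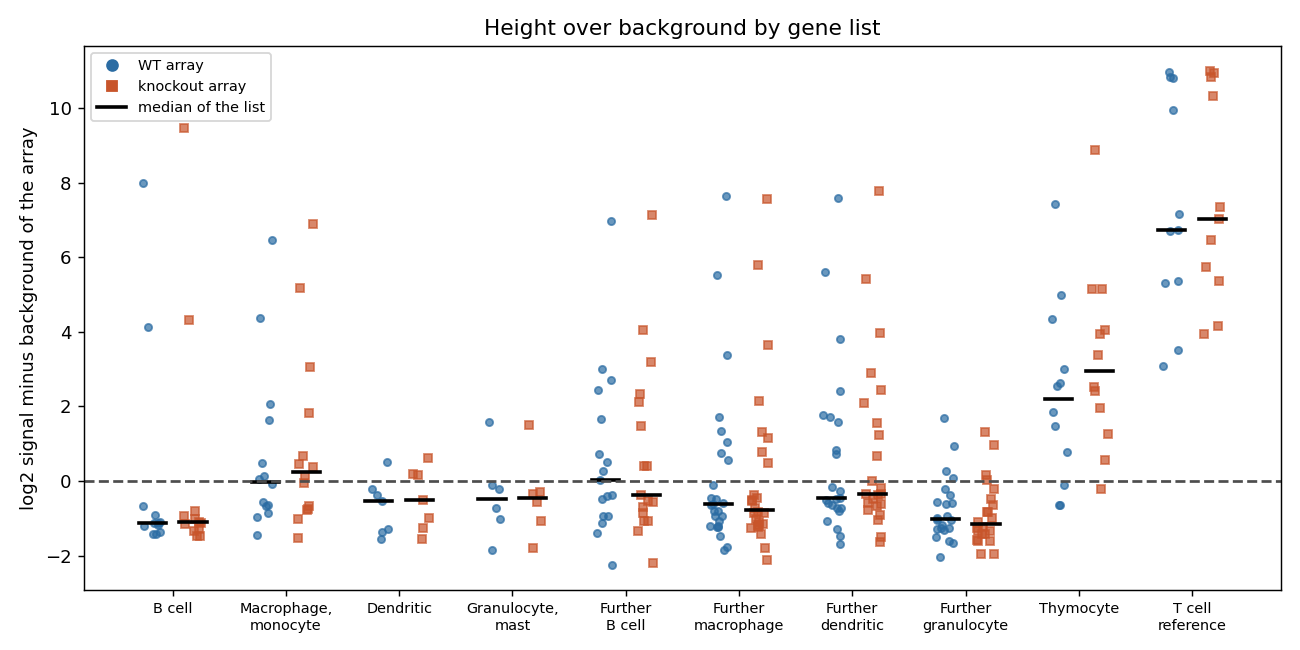
Log2 signal minus the background of the same array for the genes of each list on the WT array (circles) and the knockout array (squares), with the list median as a bar and 0 as a dashed line. Most B cell, dendritic cell and granulocyte markers lie below 0, while all 11 T cell reference genes lie above it on both arrays.

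Among the 12 B cell markers only Cd79b and Ighm were detected, on both arrays. Ighm, which encodes the heavy chain of immunoglobulin M, had log2 signals of 13.93 in WT and 15.33 in the knockout, a difference of 1.41 or 2.65-fold. Of the 14494 genes detected on at least 1 array, 25 had a higher difference. Cd79b, which encodes the Igβ signalling chain of the B cell receptor, had log2 signals of 10.08 and 10.19 and differed by 0.11. Its partner chain Cd79a, encoding Igα, was at 5.03 and 5.05 and not detected. The 2 chains thus parted, 1 well above background and 1 below it, on each array.

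The other 9 B cell markers, like Cd79a, were not detected on either array. They include the genes for the B lineage transcription factors Pax5 (log2 signals of 4.82 and 4.76 on the WT and knockout arrays) and Ebf1 (4.58 and 4.39). The gene for the transcription factor Spi-B, Spib, was at 4.85 and 4.75. Ms4a1, which encodes the surface protein CD20, had the same value, 4.72, on both arrays, and Cd22, an inhibitory receptor gene, 4.52 on both. Such exact ties occurred in 845 of the 65956 rows. Blnk, the gene for an adaptor that links the B cell receptor to its kinases, was at 4.82 and 4.85, and Vpreb3, a gene of B cell precursors, at 4.51 and 4.40. The genes for the IgE receptor CD23, Fcer2a (4.77 and 4.59), and for the complement receptor CD21, Cr2 (5.26 and 4.93), were also below background, as was the second row of Cr2 (4.96 and 4.77). Without Ighm, the summed signal of the B cell markers was 1359 on the WT array and 1427 on the knockout array, of which Cd79b gave 1079 and 1165. The 10 undetected markers summed to 279.9 and 262.3, so the higher sum on the knockout array was that of Cd79b.

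Ighm was also named on 4 rows together with another immunoglobulin gene, which cannot be assigned to 1 gene. The row naming Ighm and Ighv2-6 had log2 signals of 7.24 and 7.12 on the WT and knockout arrays and the row naming Ighm and Ighv2-7 had 6.41 and 6.36. The rows shared with Igkv8-27 (5.80 and 5.82) and Ighg3 (4.71 and 4.68) were not detected. None of the 4 shared the difference of 1.41 seen on the row for Ighm alone, their differences lying between -0.12 and 0.02.

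Promoter sequence was available from RefSeq (GRCm38.p6) for 31 of the 39 markers, in 35 windows. Motifs were chosen after the sequences had been seen, motifs of EBF and of the interferon-stimulated response element were searched too and are not reported, and the others were searched on both strands in windows of 300 bases, from 250 before each start to 50 after it. The octamer ATTTGCAT, a motif of immunoglobulin and other B cell promoters, occurred in 1.74% of all 32851 windows and in those of Vpreb3 and Blnk among the markers. The Vpreb3 and Blnk stretches below, from 150 bases before the start to 30 after it, are shown because both genes carry the octamer, in capitals, and were below background on both arrays. They lie at chr10:75948150-75948329, plus strand, and chr19:40994192-40994371, minus strand.
Vpreb3: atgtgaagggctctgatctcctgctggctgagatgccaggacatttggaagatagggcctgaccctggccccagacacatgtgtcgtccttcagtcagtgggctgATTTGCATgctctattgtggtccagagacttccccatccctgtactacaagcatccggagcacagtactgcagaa
Blnk: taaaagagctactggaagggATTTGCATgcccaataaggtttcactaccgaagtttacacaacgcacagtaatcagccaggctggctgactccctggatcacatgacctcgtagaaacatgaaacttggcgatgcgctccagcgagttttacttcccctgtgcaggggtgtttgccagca
The octamer starts 45 bases before the start in Vpreb3 and 130 bases before it in Blnk.

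Other B cell genes were taken from a second list. Of its 21 genes, 17 had a row of their own and 9 of those were detected on at least 1 array, with a median difference of 0.04, while 2 were at least 1.5-fold higher on the knockout array and 0 at least 1.5-fold lower. The surface protein gene Ly6d, a marker of early B lineage commitment, went from 6.65 in WT to 8.21 in the knockout in log2 signal. Cd24a, the other of the 2, is also on the thymocyte list, where its values are given. The surrogate light chain genes of B cell precursors parted, with Igll1 below background on both arrays (3.69 and 3.66) and Vpreb1 above it on the WT array alone (5.97 and 5.50). The median of all 14494 detected genes was 0.04. The detected share of this second list was 52.9% in WT and 47.1% in the knockout, against 46.8% of all genes. Cd37 (12.92 and 12.99), Ralgps2 (8.66 and 9.05) and Cxcr5 (8.37 and 7.99) were among those detected on both arrays. So were Tnfrsf13b (7.61 and 7.34), Pou2af1 (6.45 and 6.26) and Cd72 (6.22 and 6.26). Like Igll1, the genes Bank1, Cd40, Fcrla, Fcrl1, Cd180, Tnfrsf13c and Btk were below background on both arrays.

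Of the macrophage and monocyte markers 7 of 14 were detected on the WT array and 8 of 14 on the knockout array, shares of 50% and 57.1% that lay near the 46.8% of all genes. The 2 members of the list at least 1.5-fold higher in the knockout were Cd68 and Ctss. Cd68, which encodes the lysosomal glycoprotein macrosialin, had log2 signals of 8.02 in WT and 8.92 in the knockout, a difference of 0.91 or 1.88-fold. Ctss, the gene for cathepsin S, a protease that trims the invariant chain of MHC class II, went from 10.30 to 11.04, a difference of 0.74 or 1.67-fold. Ifi30, which encodes a lysosomal thiol reductase induced by interferon gamma, went from 12.41 to 12.77, a difference of 0.36 that stayed under 1.5-fold. Of the 14494 detected genes, 162 had a higher difference than Cd68 and 299 a higher one than Ctss. Lyz2, the gene for lysozyme, was detected on the knockout array alone (5.86 and 6.23) and is bounded at 1.23-fold higher or more.

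Receptors and adaptors of the same list lay close to background. Tyrobp, which encodes the adaptor DAP12 of activating receptors, had log2 signals of 5.98 in WT and 6.33 in the knockout. Fcer1g, which encodes the common γ chain of Fc receptors, was below background at 4.98 and 4.85. The gene for the low-affinity IgG receptor Fcgr3 (6.07 and 6.01) and that for the fractalkine receptor Cx3cr1 (6.42 and 6.53) were detected on both arrays and differed by -0.07 and 0.11. Aif1, which encodes the calcium-binding protein IBA1 and not a receptor or adaptor, lay further above background, at 7.57 and 7.68. None of the 4 of these genes that were detected was 1.5-fold apart.

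Genes that define tissue macrophages were below background on both arrays. The receptor for the growth factor CSF-1, Csf1r, was at 4.49 on the WT array and 4.35 on the knockout array, and Adgre1, which encodes F4/80, was at 5.28 and 5.09. The complement genes C1qa (5.31 and 5.19) and C1qb (5.09 and 5.10) were also below background. Mpeg1, which encodes the pore-forming protein perforin-2, was at 5.37 and 5.81, just under background on the knockout array. The 6 macrophage markers below background on both arrays thus held receptor, complement and effector genes, and the members at least 1.5-fold higher, Cd68 and Ctss, are both genes for lysosomal proteins.

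Stretches of the Ctss and Cd68 promoters are shown since these were the 2 myeloid markers at least 1.5-fold higher. They run from 150 bases before the RefSeq start to 30 after it, at chr3:95526636-95526815, plus strand, and chr11:69666141-69666320, minus strand of GRCm38.p6. Capitals mark matches to GAGGAAGT, a motif of the myeloid and B cell factor PU.1, on either strand.
Ctss: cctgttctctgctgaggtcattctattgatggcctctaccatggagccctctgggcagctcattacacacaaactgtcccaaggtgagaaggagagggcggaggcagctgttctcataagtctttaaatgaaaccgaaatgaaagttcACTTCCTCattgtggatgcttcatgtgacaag
Cd68: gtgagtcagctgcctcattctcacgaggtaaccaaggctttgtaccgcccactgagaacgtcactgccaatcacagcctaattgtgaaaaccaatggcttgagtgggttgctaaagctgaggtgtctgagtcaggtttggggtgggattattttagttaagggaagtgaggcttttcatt
The Ctss match lies on the opposite strand and starts 2 bases before the start. The Cd68 window has no match. GAGGAAGT occurred in 3.20% of all 32851 windows and in those of Ctss, Elane and Mpo among the markers. These matches describe the sequence and say nothing of which factors were bound.

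A further list of 30 macrophage and monocyte genes did not share the difference of Cd68 and Ctss. Of 26 with a row of their own, 8 were detected on both arrays, 0 were 1.5-fold apart in either direction, and the median difference was -0.01. The chemokine receptor gene Ccr2, which is also used by IL-17-producing γδ T cells, had log2 signals of 13.59 and 13.43 on the WT and knockout arrays. Its 3 detected lysosomal protease genes parted in sign, with Ctsb (11.47 and 11.65) and Lgmn (9.31 and 9.52) at 0.18 and 0.21 and Ctsl (7.29 and 7.18) at -0.11. The other detected genes were Cebpb (6.70 and 6.65), Apoe (6.99 and 7.02), Grn (7.66 and 8.02) and Lgals3 (6.51 and 6.35). Cd14, Itgam, Mrc1, Mertk, Cd163 and Trem2, surface receptors of monocytes and macrophages, all went undetected on both arrays. The detected share of the list was 30.8% on each array, against 46.8% of all genes. The summed signal of the 26 genes was 17033 on the WT array and 16232 on the knockout array, but Ccr2 gave most of it, and without Ccr2 the order turned, at 4744 and 5206.

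Of the 7 dendritic cell markers, Siglech alone was detected on both arrays. Siglech, which encodes a lectin of plasmacytoid dendritic cells, had log2 signals of 6.46 in WT and 6.49 in the knockout, and the sign of its difference, 0.03, turned after centring on the median of all detected genes. Cd83, a gene of mature dendritic cells, was detected on the knockout array alone (5.56 and 6.03, at least 1.07-fold higher), and only on 1 of its 2 rows, the other being at 4.53 and 4.72. Ly75, which encodes the endocytic receptor DEC-205, was likewise above background on the knockout array alone (5.72 and 6.04, at least 1.07-fold higher). Cd83 and Ly75 are also transcribed in thymic epithelium and were on its list of 12 genes, of which 4 were detected on each array. With bounds for genes detected on 1 array, 0 of them were 1.5-fold apart. Of the other genes of that list, Ccl25 (7.49 and 7.39) and Cldn4 (6.68 and 6.74) were detected on both arrays and 6 on neither. Krt8 (6.11 and 5.10) and Epcam (6.09 and 5.67) were detected on the WT array alone. The measured difference of Krt8 was -1.01, but its bound was only 1.18-fold lower in the knockout or more, and that of Epcam 1.17-fold.

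The genes that define conventional dendritic cells were not detected. Zbtb46, a transcription factor gene of conventional dendritic cells, was at 4.40 on the WT array and 4.32 on the knockout array, and Batf3, needed for their cross-presenting subset, at 5.39 and 5.37. Clec9a, a receptor gene of that subset, was at 4.67 and 4.89, and the growth factor receptor gene Flt3 at 4.57 and 4.59. In a further list of 23 dendritic cell genes, 10 were detected on at least 1 array, and of these 2 were higher in the knockout by 1.5-fold or more and 0 lower. The 2 were 20% of the 10, against 3.74% of all 14494 detected genes. Both were interferon regulatory factors that T cells can also transcribe, Irf8 (7.65 and 8.76) and Irf4 (6.77 and 7.43). Bst2 (11.53 and 11.28), Ccr7 (9.75 and 9.83), Cst3 (13.52 and 13.64), Relb (8.36 and 8.31) and Naaa (7.72 and 7.96) were detected on both arrays. So were Ccl17 (7.53 and 7.09) and Tcf4 (6.65 and 6.54), while Cd86 (5.77 and 5.87) was detected on the knockout array alone. Xcr1, Itgax, Cd209a and Sirpa, surface genes of dendritic cells, were below background on both arrays. The detected share of the list was 39.1% in WT and 43.5% in the knockout, against 46.8% of all genes.

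Among the 6 granulocyte, mast cell and myeloid precursor markers only Cpa3 was detected. Cpa3, which encodes a carboxypeptidase of mast cells, had log2 signals of 7.52 in WT and 7.37 in the knockout, a difference of -0.15. The neutrophil granule genes Elane (4.09 and 4.07), Mpo (5.21 and 5.31), Ngp (5.71 and 5.56) and Camp (5.84 and 5.52) were below background on both arrays. So was Csf3r, the receptor gene for the granulocyte growth factor G-CSF (4.93 and 4.80). Of 22 further granulocyte and mast cell genes, 5 were detected on at least 1 array and 0 were 1.5-fold apart, with a median difference of -0.33 among the 5. The neutrophil and monocyte genes S100a8 (6.21 and 5.88) and S100a9 (7.64 and 7.19) and the stem cell factor receptor gene Kit (6.87 and 6.83), used by mast cells, were detected on both arrays. Of 2 other neutrophil genes, Ltf was detected on the WT array alone (6.03 and 5.66) and Ly6g on the knockout array alone (5.72 and 6.02). The mast cell protease genes Mcpt4 (4.91 and 4.76), Tpsb2 (4.75 and 4.64) and Cma1 (4.63 and 4.44) and the high-affinity IgE receptor gene Fcer1a (4.65 and 4.25) were below background on both arrays, unlike Cpa3.

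In the comparison of the genotypes, which addresses how Vγ6 cells change when MHC class II is missing, 3 of the 39 markers were at least 1.5-fold higher on the knockout array and 0 at least 1.5-fold lower. The 3 were 21.4% of the 14 markers detected on at least 1 array. Among all 14494 detected genes, 3.74% were higher in the knockout by 1.5-fold or more and 2.66% lower by as much. The 3 markers, Ighm, Cd68 and Ctss, were detected on both arrays. At 2-fold only Ighm was left, against 0.738% of the 14494 detected genes higher and 0.807% lower. The 14 markers detected had a median difference of 0.34 and the 14494 genes one of 0.04, but 3 of the 14 passed through the knockout array alone, so their differences had to be above the gap to background. Over all 39 markers, above background or not, the median difference was 0.00.

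**Figure D3:**
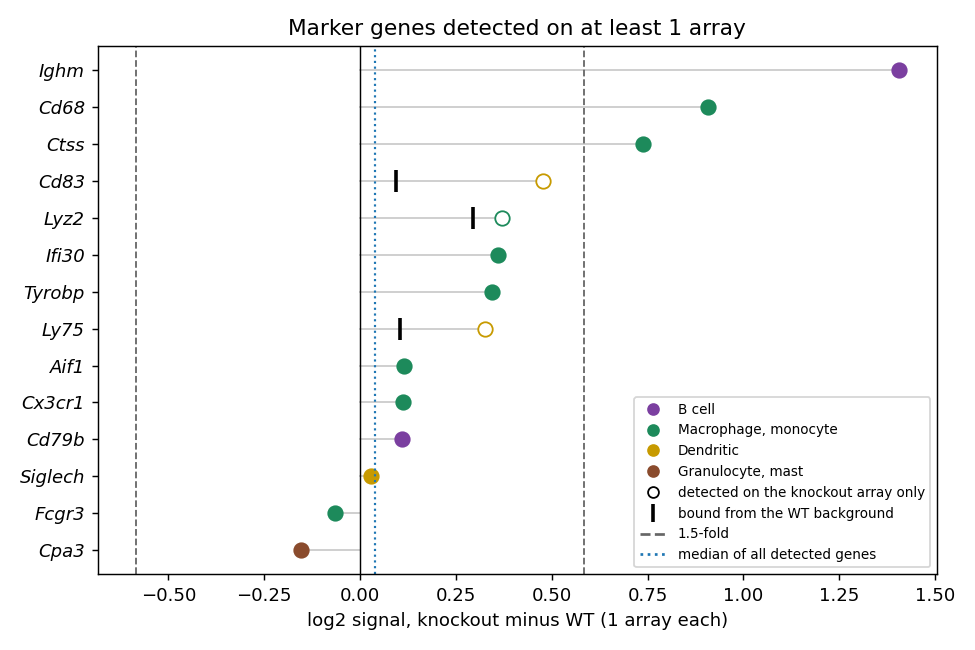
Difference in log2 signal, knockout array minus WT array, for the 14 markers detected on at least 1 array, with dashed lines at 1.5-fold and a dotted line at the median of all detected genes. Ighm, Cd68 and Ctss lie beyond the 1.5-fold line, and open circles mark Cd83, Lyz2 and Ly75, for which the black tick gives the bound.

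As a scale for these sizes, the differences of all detected genes had a robust SD of 0.25. Where a gene had 2 or more detected rows of unlike values, as 160 did, the differences of its rows parted with an SD of 0.24. The differences of Ighm, Cd68 and Ctss were larger than both figures, which measure scatter between rows and not between animals. Those of Ifi30 (0.36) and Tyrobp (0.34) were larger too, though under 1.5-fold. So were the measured differences of Cd83 (0.48), Lyz2 (0.37) and Ly75 (0.33), which were detected on the knockout array alone. Those of Cd79b, Aif1, Cx3cr1, Fcgr3, Siglech and Cpa3 were smaller than both.

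**Figure D4:**
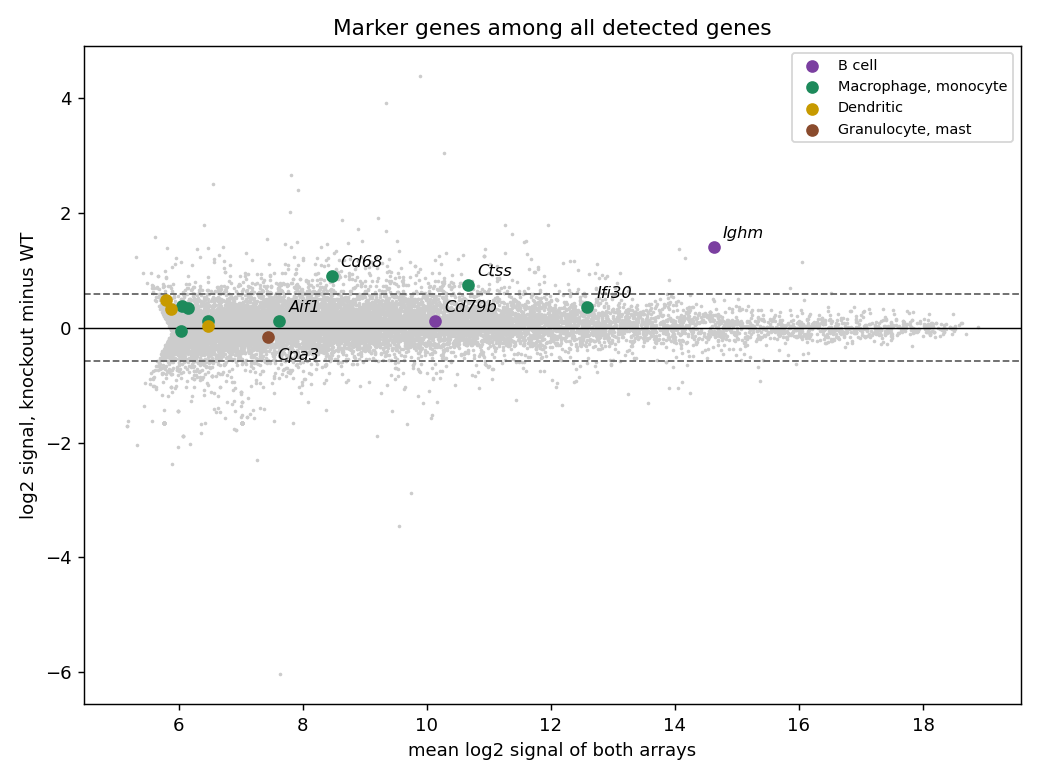
Difference in log2 signal, knockout array minus WT array, against the mean log2 signal of both arrays for 14494 genes detected on at least 1 array (grey), with the 14 markers in colour and dashed lines at 1.5-fold. Ighm lies at the upper edge of the genes of like signal, and most other markers lie within the grey band.

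Signalling genes that B, myeloid and T cells share or divide between them were read from a list of 24, of which 21 had a row of their own. On both arrays 15 were detected and 0 of these were 1.5-fold apart. The adaptor and kinase genes used mainly by B and myeloid cells, Syk (log2 signals of 4.97 and 4.72 on the WT and knockout arrays), Btk (4.56 and 4.52), Fgr (5.59 and 5.50), Blnk and Fcer1g, were below background. Their T cell counterparts Zap70 (11.24 and 11.61) and Lcp2 (13.33 and 13.63) and the CD3 ζ chain gene Cd247 (11.29 and 11.24) were above it. Blk, a kinase gene of B cells that IL-17-producing γδ T cells also use, was at 13.82 and 14.28. Hcst, which encodes the adaptor DAP10, was at 11.60 and 11.72, and Plcg2 and Lat2, genes of B and myeloid signalling, were a little above background (6.19 and 6.35, 6.88 and 6.95).

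MHC class II genes are transcribed by the same antigen-presenting cells. Of 10 with a row of their own 5 were detected on the WT array and 4 on the knockout array, with 3 lower in the knockout by 1.5-fold or more and 0 higher. Among all 14494 detected genes, 2.66% were lower and 3.74% higher by as much. H2-Ab1 had log2 signals of 7.68 in WT and 6.67 in the knockout, and H2-Eb1 6.95 and 5.98. H2-Oa, which encodes a chain of the chaperone H2-O, was at 9.84 and 9.23. H2-Aa was detected on the WT array alone (6.09 and 5.08, at least 1.17-fold lower in the knockout). H2-DMa, a chain gene of the peptide exchange factor H2-M, had the opposite sign (7.12 and 7.29), and the row naming Cd74, the invariant chain gene, together with Mir5107 was at 7.62 and 8.71. That row, which is not among the 10, was higher in the knockout by more than 1.5-fold, with a difference of 1.09. Ciita, the gene for the class II transactivator, was below background on both arrays (5.08 and 4.93). The genotype is itself a knockout of MHC class II, and the part of antigen-presenting cells in these differences was not tested.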

How the data were processed

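Total RNA of Vγ6 γδ T cells was labelled with biotin for whole-transcript arrays, 1 per group. The authors deposited linear intensities, 1 per array row. The submitters' processing notes name Affymetrix Expression Console 1.4.1 and RMA, which corrects background, normalizes arrays to each other and summarises probes. Its settings and the build of the rows were not given in the sources used here. On the WT and knockout arrays 767 and 742 rows exceed 65535, the ceiling of a 16-bit scanner, so an unrecorded step could have widened or narrowed every fold.

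The log2 of each intensity was taken. Row symbols came from the platform annotation, which can be old: 30604 rows had 1 gene symbol, 2146 several and 33206 none. Symbols were updated through gene identifiers of the RefSeq table (GRCm38.p6), which matched 22818 rows. Of several rows of a gene the brightest was used. For a gene detected on a single array a bound was computed against the background of the other, and 1.5-fold was the threshold. With 1 array per group no test was possible, and the number of arrays limits the precision. Every member was accounted for. Of the further lists, detected genes were named where at least 1.5-fold apart, up to the 4 widest differences a list, or from the T cell, MHC class II and signalling lists, and others named here were chosen after their values were seen. Members and lists were chosen with earlier results of these data known. The steps were run in Python 3.11.15 with pandas 2.3.3. They were tested on simulated data with changes wider than 1.5-fold in bright genes and less scatter than these arrays show. That test checked the code and not the reliability of calls near the threshold or the background. Alternatives covered the background, rows, scaling, bounds and threshold.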

Additional observations from a re-analysis of the deposited data

How the results depend on the processing

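Ighm, Cd68 and Ctss stayed at least 1.5-fold higher on the knockout array, and 0 markers at least 1.5-fold lower, under every alternative background, row choice, scaling and treatment of bounds. Their differences ranged from 1.37 to 1.44, 0.87 to 0.91 and 0.70 to 0.74. Each of these genes has 1 row naming it alone and was well above background on both arrays. The background, row and bound settings therefore left their differences unchanged, and only the scalings moved them. At 2-fold the count of higher markers was 1. With the 99th percentile of olfactory receptor rows as background, 7 markers were above it on the WT array and 7 on the knockout array, where Tyrobp, Fcgr3, Cx3cr1, Siglech and the 3 genes detected on 1 array no longer passed. With the 90th percentile the counts were 15 and 16, and with vomeronasal receptor rows 9 and 13. The median difference of the markers detected went from 0.34 to 0.11 with lower values raised to the background. The difference of Cd83 then fell to 0.09. Siglech changed sign when differences were centred (-0.01). No paired analysis was possible because each group has 1 array, and for the same reason no array could be left out.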

Other observations

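Immunoglobulin variable segments, a group chosen after the value of Ighm had been seen, did not share its difference. Of 113 heavy chain V segments with a row of their own, 20 were detected on at least 1 array, with 0 higher in the knockout by 1.5-fold or more and 1 lower, with a median difference of -0.26 among the 20. On the WT array 18 of the 113 were detected and on the knockout array 17. Of 86 kappa V segments, 25 were detected on at least 1 array, with 0 higher and 2 lower by that threshold and a median of -0.20. Their detected share was 24.4% on the WT array and 25.6% on the knockout array, also under that of all genes. The other heavy chain constant genes with a row of their own, Ighe, Ighg1 and Ighg2b, were below background on both arrays. The row that names Igkc among 14 kappa light chain symbols had log2 signals of 5.88 in WT and 5.63 in the knockout, below background on both. Among the 4 heavy chain constant genes named with a row of their own, Ighm (13.93 and 15.33) was thus the 1 detected. The V segments are short and similar in sequence, so their rows may share signal.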
